A study of Mus musculus with 2 samples.

Results

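The cells described here are 289 of 2552 cells from adult mouse testis that carried the marker genes of late pachytene spermatocytes with comparatively little RNA. They were chosen by 6 sets of 4 marker genes each. In every cell a set was scored as the mean of its genes' log2(1 + CPM), each gene centred and scaled over all cells, where CPM is a count per 1000000 unique molecular identifiers (UMIs, tags that count captured RNA molecules). A cell became a member when its highest score was that of the pachytene set (Pou5f2, D030056L22Rik, Ppp1r27 and Tcam1) and it held fewer than 30000 UMIs. The pachytene set scored highest in 507 cells, and the 218 of them with at least 30000 UMIs are called RNA-rich cells below, the members RNA-poor cells.

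The cells came from testes of 2 C57Bl/6J Crl mice, littermates at 8 weeks of age, with 1 droplet library of RNA 3′ ends per mouse and no treatment. A portion of the tubules was taken without the tunica, digested with enzymes and passed through a strainer, which the study used to limit somatic cells. Mouse 1 gave 1237 cells and 27450497 UMIs, mouse 2 gave 1315 cells and 30302332 UMIs, and no barcode was shared between them. RNA-poor cells numbered 168 of 1237 in mouse 1 (13.6%, exact binomial 95% interval 11.7% to 15.6%) and 121 of 1315 in mouse 2 (9.20%, 7.69% to 10.9%). These intervals cover counting error only, and with 1 animal on each side the difference between the mice has no replicate check. The members held 4658790 UMIs, 8.07% of all.

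Pachytene spermatocytes are large cells that keep most chromosomes active and shut the sex chromosomes into a body with little transcription. The spermatocyte stores transcripts for the divisions and for the spermatid, and then passes through both meiotic divisions with little time between them. Cyclins, the kinase Cdk1 and mitotic kinases such as Plk1 and Aurka drive entry into division, and after it the haploid round spermatid builds an acrosome and resumes transcription of part of the X chromosome.

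The genes used to choose the cells are shown by the sequence before their starts, since they define the population. MYBL1, the MYB factor of pachytene spermatocytes, binds sites with the letters CAACGG or CAACTG, and also TAACGG or TAACTG. The windows below run from 250 bases before to 20 bases after the first listed gene start, from RefSeq on GRCm38.p6, in the direction of the gene. Capitals mark any of these letters on either strand, or TGACGTCA, the binding letters of CRE factors. Pou5f2 lies at chr13:78024652-78024921 on the plus strand and Tcam1 at chr11:106276422-106276691 on the plus strand.
Pou5f2: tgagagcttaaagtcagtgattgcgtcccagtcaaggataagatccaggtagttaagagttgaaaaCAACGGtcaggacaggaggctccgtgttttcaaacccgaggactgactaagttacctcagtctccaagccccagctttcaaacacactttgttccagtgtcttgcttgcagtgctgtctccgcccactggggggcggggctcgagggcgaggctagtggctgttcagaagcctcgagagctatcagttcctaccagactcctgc
Tcam1: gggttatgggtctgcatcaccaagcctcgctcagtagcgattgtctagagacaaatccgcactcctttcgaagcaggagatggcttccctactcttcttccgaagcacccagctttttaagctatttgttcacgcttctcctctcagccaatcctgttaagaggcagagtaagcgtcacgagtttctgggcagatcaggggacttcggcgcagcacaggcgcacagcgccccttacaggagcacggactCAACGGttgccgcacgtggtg

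Each of these windows held 1 MYB match and no CRE match, the MYB letters starting 184 bases before the start of Pou5f2 and 1 base before that of Tcam1. The windows of D030056L22Rik at chr19:18712985-18713254 on the plus strand and of Ppp1r27 at chr11:120551113-120551382 on the minus strand held neither. Of 27025 promoter windows of the same length, 25.7% held a MYB match and 1.81% a CRE match, so these matches are a description. Mybl1 itself stood at 44.1 CPM in RNA-poor cells of mouse 1 and 76.6 CPM in mouse 2, close to the 46.9 and 78.3 CPM of RNA-rich cells and above the 10.0 and 9.5 CPM of the cells led by the Ssxb set.

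The limit of 30000 UMIs fell in a sparse stretch between a narrow group of cells and a broad one. RNA-poor cells held 7317 to 29800 UMIs. Their median was 15220.5 for mouse 1 and 17125 for mouse 2, while RNA-rich cells had medians of 60278 and 46226. The cells nearest the limit held 29800, 29496 and 29454 UMIs inside it and 30374, 30447 and 31141 outside it. Of the 507 cells, 35 held from 25000 to below 35000 UMIs, 17 of them members. A class taken from a score is a range and not a type, and 19 members led their second set by less than 0.1 score units and 40 by less than 0.2, with a median lead of 0.839. The second set was that of early prophase in 133 members and the Ssxb set in 79.

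**Figure D1:**
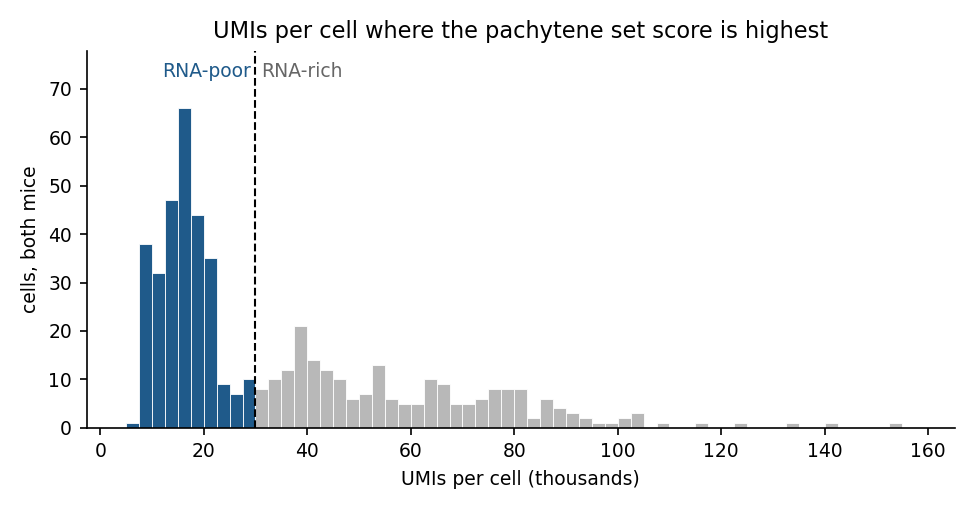
Number of cells (vertical axis) by UMIs per cell (horizontal axis) for the 507 cells of both mice whose highest score was that of the pachytene set, in steps of 2500 UMIs. The dashed line is the limit of 30000, with RNA-poor cells in blue and RNA-rich cells in grey. The steps beside the limit hold 10 and 8 cells, and many steps of RNA-rich cells hold as few.

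The 4 genes of the pachytene set were graded between the classes. Pou5f2, a POU-domain factor of the germ line, measured 257 CPM in RNA-rich cells of mouse 1 and 241 CPM in mouse 2. In RNA-poor cells it measured 56.7 and 64.4 CPM, and in the cells led by the Ssxb set (Ssxb1, Ssxb2, 1700001F09Rik and Iqca), named Ssxb-led cells below, 5.58 and 3.68 CPM. Tcam1, a testis cell adhesion gene, measured 225 and 187 CPM in RNA-rich cells and 201 and 167 CPM in RNA-poor cells. D030056L22Rik measured 218 and 199 CPM in RNA-poor cells, and Ppp1r27, a regulatory subunit of protein phosphatase, 126 and 109 CPM. Since these genes chose the cells, their levels are a description. All 4 lay below the RNA-rich level in both mice, Pou5f2 by the widest ratio, and all 4 lay above the Ssxb-led level.

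The rule also admitted 5 cells that carried RNA of somatic cells. They held 191 to 412 UMIs of the Sertoli and Leydig marker lists, while no other member held more than 9. In 4 of them, all from mouse 1, Sertoli genes prevailed, and in 1 from mouse 2 Leydig genes did. Their effect was visible in the sums: the 12 Sertoli genes together measured 388 CPM in mouse 1 and 41.0 CPM in mouse 2 with these cells and 41.7 and 28.4 CPM without them, led by Clu with them and by Inha without them. The 8 Leydig genes, led by Fabp3, which is not restricted to Leydig cells, measured 86.3 and 237 CPM with these cells and 86.9 and 49.5 CPM without them. Results that rest on these cells are given with and without them. Scrublet called 2 members doublets.

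RNA-poor cells carried the highest summed level of the meiotic division genes of all classes in both mice. The 20 genes of this list, chosen as cyclins, kinases and chromosome segregation factors, together measured 4704 CPM in RNA-poor cells of mouse 1 and 5011 CPM in mouse 2. They measured 4152 and 3744 CPM in RNA-rich cells and 3011 and 2734 CPM in Ssxb-led cells. The ranges of the 3 classes did not overlap between the mice. Aurka was the most abundant gene of the list in RNA-poor and RNA-rich cells. Over single cells without the 5 somatic ones, the list had a median of 4647 CPM in mouse 1, from 1888 to 7623 CPM, and of 5232 CPM in mouse 2, from 1431 to 6872 CPM.

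Cyclin B1 rose most firmly within this list. Ccnb1 (chr13:100778650-100786570), the regulatory partner of Cdk1, measured 209 CPM in RNA-rich cells of mouse 1 and 184 CPM in mouse 2. In RNA-poor cells it measured 434 and 485 CPM, and in Ssxb-led cells 352 and 344 CPM. RNA-poor cells were thus the highest class in both mice, and edgeR gave a log2 fold change of 1.14 ± 0.15 (SE, n = 2 mice) over RNA-rich cells, with an adjusted p of 0.00013. Over Ssxb-led cells the log2 fold change was 0.20 ± 0.15 and did not pass (edgeR adjusted p = 0.29). Plk1, the polo-like kinase of division, measured 179 and 157 CPM in RNA-rich cells and 300 and 345 CPM in RNA-poor cells. Its log2 fold change was 0.86 ± 0.13 (edgeR adjusted p = 0.00045). Ccna1, the cyclin that male meiosis requires, measured 372 and 293 CPM against 494 and 531 CPM, a log2 fold change of 0.54 ± 0.13 (edgeR adjusted p = 0.0088), which did not pass with 20000 UMIs as the limit (0.31) or with cells thinned to 5000 UMIs (0.38). The adjusted p-values come from edgeR's quasi-likelihood test with Benjamini-Hochberg adjustment over 13041 genes and repeat rows.

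Of the 20 division genes, 7 rose and 1 fell in this comparison, with a median log2 fold change of 0.27, where 14.9% of all features tested rose, 8.30% fell and the median was 0.03. The other genes that rose were Ccnb2, Cdc25c, Bub1 and Incenp, a cyclin, a phosphatase that activates Cdk1, a checkpoint kinase and the scaffold of the Aurora B and C complex. With 20000 in place of 30000 UMIs as the limit 2 of the 20 rose, beside 1462 of 13352 features, a like share. With thinned cells 2 rose beside 420 of 7787 features, while the list's median log2 fold change was still 0.27. With a lead of at least 0.2 over the second set 4 rose beside 1539 of 12956 features, with no filter on low counts 3 beside 1762 of 25875, and without the 5 somatic cells 9 beside 1775 of 12934. The gene that fell was Cks2, a small partner of Cdk1, from 406 and 405 CPM in RNA-rich cells to 107 and 114 CPM, a log2 fold change of -1.96 ± 0.13 (edgeR adjusted p = 2.3e-07). Aurka stood at 671 and 673 CPM against 575 and 513 CPM, and Nek2, a centrosomal kinase, at 478 and 457 CPM against 347 and 302 CPM. Neither passed this test, though Nek2 did with the mouse as a block (log2 fold change 0.45), as did Cdc20 (0.32), the activator of the anaphase-promoting complex.

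**Figure D2:**
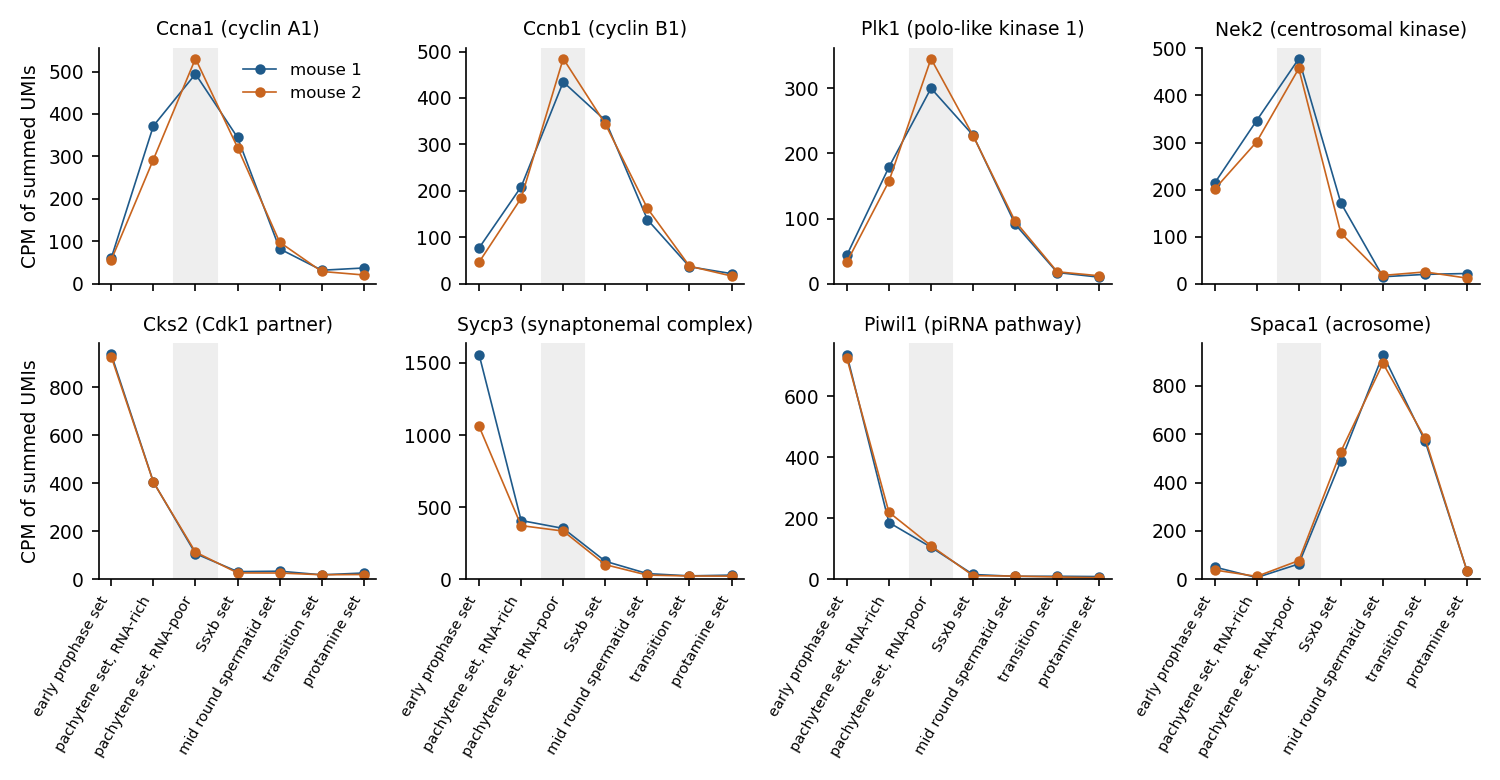
CPM of summed UMIs (vertical axes, from 0) of 8 listed genes in 7 cell classes (horizontal axes), with 1 point per mouse and lines that join the points of a mouse. The shaded class is the RNA-poor cells. Ccna1, Ccnb1, Plk1 and Nek2 are highest there in both mice, while Cks2, Sycp3 and Piwil1 are highest in early prophase cells and Spaca1 in cells of the mid round spermatid set.

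A higher CPM did not mean more molecules per cell. RNA-rich cells held on average 12.97 Ccnb1 UMIs per cell in mouse 1 and 10.3 in mouse 2, RNA-poor cells 6.74 and 8.21, and Ssxb-led cells 6.72 and 7.67. For all 20 division genes and all 15 pachytene genes the mean UMIs per cell were lower in RNA-poor than in RNA-rich cells in both mice. Among all 13041 features tested, 752 had more UMIs per cell in RNA-poor cells in both mice (5.77%) and 11126 had fewer. Since UMIs per cell contain the total that the rule used, these are descriptions.

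Some genes of pachytene were lower. Of the 15 pachytene genes, 5 fell and none rose, beside 8.30% and 14.9% of all features. Those that fell were Piwil1, a piRNA-binding protein of pachytene, Tdrd1, a Tudor protein of the same pathway, Psma8, the germ line proteasome subunit, Ybx3, an RNA-binding repressor, and Hist1h1t, the testis linker histone. Hist1h1t rested on few counts, at 0 and 2.44 CPM against 3.75 and 7.10 CPM in RNA-rich cells. With cells thinned to 5000 UMIs 3 of 14 fell, beside 250 of 7787 features. DESeq2, 40000 UMIs as the limit and a lead of at least 0.2 each gave 4 that fell. All features that fell there were 537 of 13041, 623 of 12971 and 921 of 12956. Piwil1 went from 186 and 220 CPM in RNA-rich cells to 105 and 110 CPM, a log2 fold change of -1.0 ± 0.14 (edgeR adjusted p = 0.00018). The list as a whole stayed near its RNA-rich level, with 16813 and 18453 CPM against 17433 and 17573 CPM, most of it Ldhc, the lactate dehydrogenase of germ cells. The median log2 fold change was -0.13. With the mouse as a block, Clgn, a chaperone, and Pgk2, a glycolytic kinase, also passed as higher (0.28 and 0.35 on the log2 scale).

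Of the 13 tested genes of early prophase, Sycp2, a component of the synaptonemal complex, fell (log2 fold change -0.49 ± 0.11, edgeR adjusted p = 0.0060), and Rec8 and Tex15 rose. These are shares near the 8.30% and 14.9% of all features, so the counts are no result about the list. Sycp3, of the same complex, measured 353 and 335 CPM against 408 and 373 CPM and did not pass. Rec8, the meiotic cohesin, rose from 1.07 and 0.73 CPM to 11.1 and 8.29 CPM. Tex15, which acts in recombination and transposon silencing, rose from 1.34 and 1.46 CPM to 10.4 and 5.85 CPM. Both were higher again in Ssxb-led cells, Rec8 at 80.8 and 78.0 CPM and Tex15 at 66.2 and 90.8 CPM, while early prophase cells held Rec8 at 12.1 and 7.64 CPM and Tex15 at 23.5 and 17.8 CPM. The calls of Sycp2 and Tex15 were lost with thinned cells.

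Most round spermatid genes had a higher CPM in RNA-poor than in RNA-rich cells. Of the 15 genes of that list, 13 rose against RNA-rich cells and none fell, with a median log2 fold change of 1.31, beside 14.9% and 8.30% of all features. With cells thinned to 5000 UMIs 4 of 15 rose (median 1.20), beside 420 of 7787 features. With 20000 UMIs as the limit 10 rose, beside 1462 of 13352 features. The list summed to 1912 and 2063 CPM against 1613 and 1510 CPM, led by Zpbp2, which did not pass, at 1052 and 1129 CPM against 1050 and 945 CPM. Spaca1 (chr4:34024874-34050191), a membrane protein of the acrosome, measured 7.37 and 12.2 CPM in RNA-rich cells, 63.7 and 77.5 CPM in RNA-poor cells and 490 and 528 CPM in Ssxb-led cells. Its log2 fold change over RNA-rich cells was 2.79 ± 0.21 (edgeR adjusted p = 9.3e-07), and it was the only gene of the list with more UMIs per cell in RNA-poor cells in both mice, 0.988 and 1.31 against 0.458 and 0.684. The other genes of the list, among them Acrv1 at 16.5 and 22.4 CPM against 4.69 and 7.65 CPM, had no such increase per cell in both mice. Of the markers of late spermatids 12 of 13 rose beside 14.9% of all features, or 7 with thinned cells beside 420 of 7787 features. The list measured 2705 and 2596 CPM against 1466 and 1462 CPM, Tnp1 727 and 583 CPM against 332 and 269 CPM, and Dbil5 was its most abundant gene. Per cell the late spermatid list fell from 91.1 and 81.9 UMIs to 42 and 44.0, and all 13 genes were lower per cell in both mice. The part of RNA from other cells in the rise of the round spermatid genes was not tested.

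**Figure D3:**
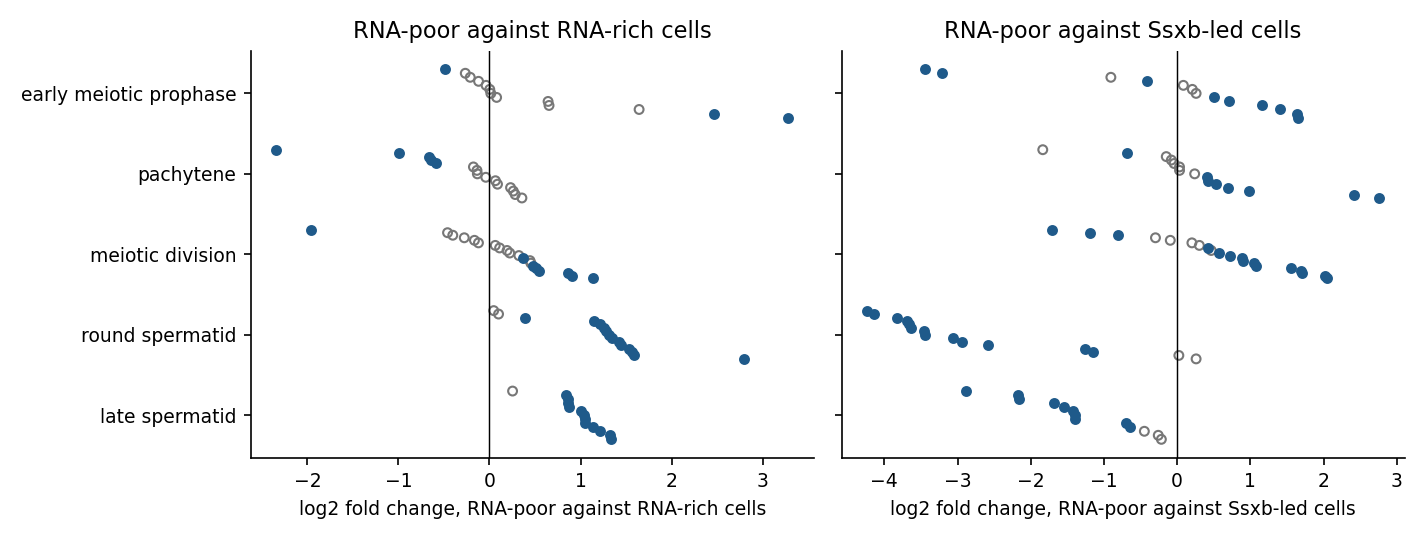
Log2 fold change (horizontal axes) of each listed gene in RNA-poor cells against RNA-rich cells (left) and against Ssxb-led cells (right), by list (vertical axis). Each point is a gene, filled where the edgeR adjusted p was under 0.05. Against RNA-rich cells the spermatid genes lie to the right of 0, and against Ssxb-led cells most lie to the left.

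The genes with the largest increase over RNA-rich cells were led by Gm8138 and Speer4e. Gm8138 (chr14:43410827-43416350) measured 0.67 and 2.91 CPM in RNA-rich cells, 45.6 and 68.3 CPM in RNA-poor cells and 29.8 and 20.3 CPM in Ssxb-led cells, and 1.22 and 1.87 CPM in cells of the mid round spermatid set. Its peak thus lay in RNA-poor cells, with a log2 fold change of 5.0 ± 0.41 over RNA-rich cells (edgeR adjusted p = 2.0e-06). Speer4e (chr5:14933221-14938429), of a testis family of glutamate-rich proteins, rose from 4.29 and 6.38 CPM to 122 and 125 CPM, a log2 fold change of 4.48 ± 0.20 (edgeR adjusted p = 1.8e-08). It stood at 162 and 127 CPM in Ssxb-led cells. Both belong to families of similar copies, so their counts are uncertain between copies. Bora, which activates Aurka toward Plk1, rose from 16.9 and 15.5 CPM to 65.2 and 64.4 CPM.

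BC061237, Prr22, Spatc1l, 1700001J03Rik and Tsga8 completed this group together with Spag6 and Spaca1, with log2 fold changes from 1.93 to 4.0. All 7 were higher still in Ssxb-led cells of both mice. Spag6, of the central pair of the flagellum, rose from 3.89 and 7.29 CPM to 53.7 and 51.2 CPM and reached 614 and 709 CPM in Ssxb-led cells. Spag6 has the close relative Spag6l, so its counts are uncertain.

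The genes with the largest decrease were Rfxap, Ccne2, Cks2, Pcbp1, Hmgb2, Upf1, Fbn2, Gm45109, Anp32b and 2610001J05Rik, with log2 fold changes from -2.25 to -1.70. Ccne2, cyclin E2 of the entry into S phase, fell from 25.2 and 37.3 CPM to 9.59 and 5.36 CPM. Hmgb2, a chromatin protein, fell from 138 and 175 CPM to 45.6 and 45.3 CPM, and Upf1, the helicase of nonsense-mediated decay, from 34.8 and 43.4 CPM to 11.5 and 12.2 CPM. All 10 were lower again in Ssxb-led cells of both mice, so the RNA-poor cells lay between the other classes for these genes.

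The X chromosome, whose remaining genes were not used in choosing the cells, also set RNA-poor and RNA-rich cells apart. X-linked genes took 0.104% of the UMIs of RNA-rich cells in mouse 1 and 0.10% in mouse 2. In RNA-poor cells they took 0.283% and 0.240%, or 0.233% and 0.231% without the 5 somatic cells (0.232% ± 0.00156, SD, n = 2). Ssxb-led cells followed with 0.726% and 0.793%, and cells of the mid round spermatid set with 1.31% and 1.34%. Early prophase cells had 0.394% and 0.234%, with medians over cells of 0.20% and 0.153%, where the median member had 0.201% and 0.219%. RNA-poor cells thus lay above RNA-rich and below Ssxb-led cells in both mice, by more than the mice differed. The scores that chose the classes are tied to this share, so the order is a description. Without the 5 somatic cells, members with the Ssxb set second had 0.329% and 0.310%, those with the early prophase set second 0.187% and 0.214%. With 2 mice in each class an exact permutation test cannot reach a p below 0.05.

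Of 359 X-linked genes tested, 205 rose against RNA-rich cells and none fell, beside 14.9% of all features that rose. Without the 5 somatic cells 168 of 346 rose and none fell. The median log2 fold change was 2.29, or 1.86 without these cells. With each cell thinned to 5000 UMIs, 34 of 129 rose, beside 420 of 7787 features, with a median of 2.16. With no filter on low counts 227 of 1022 rose and 1 fell, beside 1762 of 25875 features that rose, with a median of 1.41. In UMIs per cell, 156 of 359 X-linked genes were higher in RNA-poor cells in both mice (43.5%), or 132 without the somatic cells (36.8%), beside 5.77% and 4.77% of all features, while 68 were lower, or 95 without the somatic cells. Summed over all X-linked genes, RNA-poor cells held fewer UMIs per cell than RNA-rich cells, 44.0 and 40.6 against 64.7 and 56.1, or 36.4 and 39.2 without the somatic cells. None of the 13 late spermatid genes was higher by that measure.

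Among the 15 X-linked genes with the most UMIs in the members, a list made after their values were seen, 11 rose, and Gm8648, Gm14698, Gm6472 and Cypt1 did not pass the test. Of all features 14.9% rose, but a choice by UMIs in the members favours genes that rose, so this count is a description. Gm8648, a processed pseudogene by its annotation, measured 303 and 239 CPM in RNA-poor cells, 329 and 241 CPM in RNA-rich cells and 318 and 212 CPM in Ssxb-led cells. Pseudogene counts can hold reads of the parent gene, so this value is uncertain. Ribc1, a protein of ciliary microtubules, rose from 4.82 and 10.4 CPM to 42.2 and 48.3 CPM (log2 fold change 2.53 ± 0.27, edgeR adjusted p = 2.1e-05). Phf6, a chromatin protein expressed in many tissues, rose from 2.81 and 6.74 CPM to 30.3 and 33.2 CPM, and from 0.175 and 0.378 to 0.470 and 0.562 UMIs per cell. Nxf2, an mRNA export factor of the germ line, measured 1.61 and 4.37 CPM in RNA-rich cells, 26.1 and 27.8 CPM in RNA-poor cells and 10.5 and 8.89 CPM in Ssxb-led cells. Nxf2 was thus higher in RNA-poor than in Ssxb-led cells in both mice, unlike Ribc1 and Phf6, which were higher in Ssxb-led cells. Tsga8, a haploid germ cell gene, rose from 20.9 and 28.8 CPM to 101 and 131 CPM. What part RNA from other cells had in the rise of X-linked genes was not tested.

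For the Y chromosome too, RNA-poor cells lay between RNA-rich and Ssxb-led cells, at far lower levels. Y-linked genes took 0.00598% and 0.00517% of UMIs in RNA-poor cells, 0.000791% and 0.00118% in RNA-rich cells and 0.0551% and 0.0655% in Ssxb-led cells. Of 52 Y-linked genes tested, 11 rose against RNA-rich cells and none fell, beside 14.9% and 8.30% of all features. Early prophase cells had 0.00752% and 0.00582%, above RNA-poor cells in both mice. Y-linked genes form families of near-identical copies, so single counts are uncertain.

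Against Ssxb-led cells, which the scores separated from the members by expression, RNA-poor cells had more of most division genes and less of most spermatid genes. Since expression defined both classes, the calls follow in part from the choice and are given as a description. Of 13041 features, 21.8% were higher in RNA-poor cells and 26.0% lower, and with upper quartile in place of TMM scaling 4437 were higher and 2795 lower. Of the division genes 12 were higher and 3 lower, of the pachytene genes 7 and 1, of the early prophase genes 6 and 3 of 13, and of the round spermatid genes 0 and 13. The other 2 round spermatid genes did not pass, Zpbp2, a zona pellucida-binding protein, at 1052 and 1129 CPM against 964 and 904 CPM and Dpy19l2, of acrosome attachment, at 186 and 207 CPM against 148 and 138 CPM. Cdk1 stood at 173 and 196 CPM in RNA-poor cells and 38.6 and 39.0 CPM in Ssxb-led cells. Sgol2a, which protects centromeric cohesin, stood at 107 and 80.5 CPM against 23.0 and 17.6 CPM. Bub1 went the other way, at 53.7 and 55.6 CPM against 145 and 165 CPM, as did Cdc25c and Meikin, a meiotic kinetochore gene.

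The largest differences in this comparison named Phf2, a histone demethylase, at 76.7 and 61.9 CPM against 2.55 and 2.96 CPM, and Mllt10, a chromatin reader, at 322 and 291 CPM against 27.6 and 26.8 CPM. Ube2t, a ubiquitin-conjugating enzyme of DNA repair, stood at 124 and 137 CPM against 8.93 and 9.37 CPM. Bcl2l12, D130017N08Rik, Elfn2, Mgll, Nsmce3, Lsm3 and Zbtb42 completed the group, with log2 differences from 3.09 to 3.85. All of this group but Zbtb42 were higher still in RNA-rich cells of both mice. Phf2 stood there at 95.8 and 91.1 CPM, Mllt10 at 601 and 644 CPM and Ube2t at 237 and 218 CPM. Zbtb42 was higher in RNA-rich cells in mouse 2 only. In the other direction stood A630023A22Rik, Gm43213, Gm45787, 1700010H22Rik, Gm4985, Gm21721, Frmd4b, Fam135b, Gm27227 and Pp2d1, all below 4 CPM in RNA-poor cells. Pp2d1, a phosphatase-like gene, measured 2.30 and 3.9 CPM there and 66.2 and 91.3 CPM in Ssxb-led cells.

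Of 3316 genes with at least 100 UMIs in the members of both mice, 612 had their highest CPM there in both mice, beside 716 in early prophase, 561 in RNA-rich and 244 in Ssxb-led cells. This count favours the members, since the minimum was set on their UMIs. Of the 612, 6 exceeded the next class more than 1.5-fold in both. These were Herc2, Wrn, Cenpe, Kif23, Gm8138 and Rrm2. Kif23, a kinesin of the midzone in cytokinesis, measured 110 and 117 CPM in RNA-poor cells, 69.5 and 59.2 CPM in Ssxb-led cells and 52.0 and 57.0 CPM in RNA-rich cells. Cenpe, the kinesin that moves chromosomes to the spindle equator, measured 281 and 279 CPM, with 178 and 144 CPM in RNA-rich and 174 and 162 CPM in Ssxb-led cells. Wrn, a DNA helicase, measured 80.9 and 63.9 CPM, and Herc2, a ubiquitin ligase of DNA repair, 124 and 91.2 CPM. Tmem55b, Dcaf8, Rpa1 and Rgcc followed, with smaller ratios of 1.46 to 1.49.

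RNA-poor cells were not uniform. Without the 5 somatic cells, members under 15000 UMIs held Ccnb1 at 294 and 368 CPM, members from 15000 to below 20000 UMIs at 500 and 569 CPM, and members from 20000 UMIs up at 539 and 462 CPM. RNA-rich cells below 50000 UMIs held 371 and 244 CPM and those with 50000 or more 164 and 148 CPM. Ccnb1 was thus highest in the middle of the UMI range and fell toward both ends. Pou5f2 ran the opposite way, at 103 and 117 CPM, 36.7 and 31.4 CPM, 29.7 and 72.4 CPM, 129 and 182 CPM, and 293 and 277 CPM over the same 5 classes. Since Pou5f2 and the total UMIs were both used to choose the cells, its course is a description. Cks2 had its lowest values, 64.6 and 73.2 CPM, in members from 15000 to below 20000 UMIs.

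Members under 15000 UMIs had a higher mitochondrial share. It was 0.815% and 0.501%, against 0.278% and 0.222% from 15000 to below 20000 UMIs and 0.202% and 0.174% from 20000 UMIs up. Mitochondrial genes took 0.525% of the UMIs of all members of mouse 1 and 0.272% for mouse 2, or 0.437% and 0.264% without the somatic cells, while RNA-rich cells had 0.196% and 0.234%. The median member had 0.215% and 0.180%, so a minority of cells carried the excess, and 3 members were above 5%, 2 of them somatic. The X-linked share of members was 0.208% and 0.248% under 15000, 0.249% and 0.240% from 15000 to below 20000 and 0.238% and 0.210% from 20000 UMIs up, above 0.119% and 0.114% in the RNA-rich cells below 50000 UMIs. Early prophase cells had mitochondrial shares of 0.807% and 0.832%. What part the cells with a high mitochondrial share had in the levels of Pou5f2 and Ccnb1 was not tested.

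**Figure D4:**
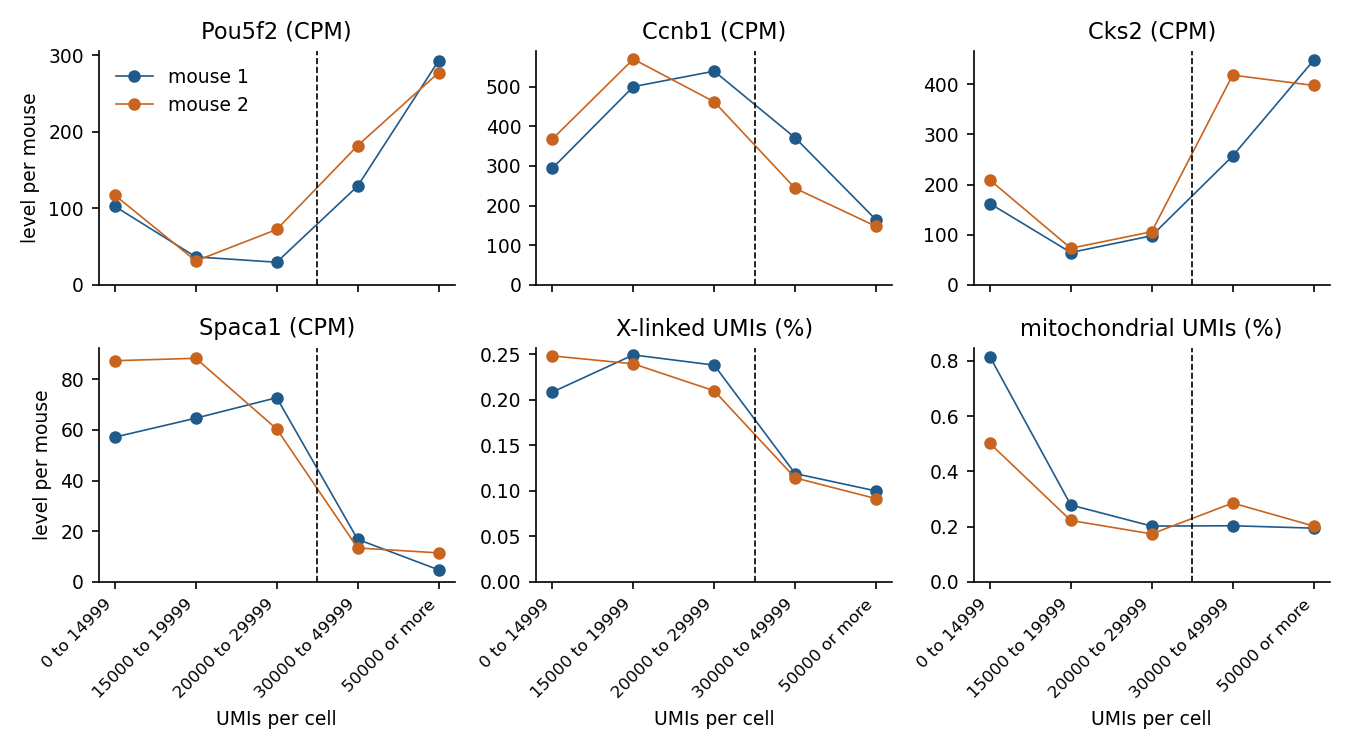
Levels (vertical axes, from 0) of Pou5f2, Ccnb1, Cks2 and Spaca1 in CPM and of X-linked and mitochondrial UMIs in percent, in 5 classes of UMIs per cell (horizontal axes), 1 point per mouse, without the 5 somatic cells. The dashed line is the limit between RNA-poor cells (left) and RNA-rich cells (right). Ccnb1 peaks among RNA-poor cells of at least 15000 UMIs, and the mitochondrial share is highest under 15000.

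The score that came second divided the members too, as a description, since the scores chose them. Members with the Ssxb set second held 0.329% and 0.310% X-linked UMIs, Spaca1 at 128 and 125 CPM, Ccnb1 at 515 and 622 CPM and Pou5f2 at 26.8 and 9.98 CPM. Members with the early prophase set second held 0.187% and 0.214% X-linked UMIs, Spaca1 at 33.9 and 64.5 CPM, Ccnb1 at 400 and 427 CPM and Pou5f2 at 79.7 and 89.9 CPM. The mice gave the same order in each of these 4 measures.

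At equal depth, the number of genes detected per cell differed little between RNA-poor, RNA-rich and Ssxb-led cells. With each cell thinned to 5000 UMIs, RNA-poor cells had 2290 genes per cell in mouse 1 and 2266 in mouse 2 (2278 ± 17.1, SD, n = 2). RNA-rich cells had 2223 and 2240, and Ssxb-led cells 2334 and 2358. Before thinning, the medians were 4110 and 4311 genes in RNA-poor and 6734 and 6295.5 in RNA-rich cells, and 4554 and 4675.5 in Ssxb-led cells. Thinned, RNA-poor cells lay between these classes in both mice, and unthinned they lay below both.

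Of 3 nuclear-retained RNAs tested, Malat1 rose against RNA-rich cells and its rise depended on the somatic cells. It went from 807 and 898 CPM in RNA-rich cells to 1242 and 1116 CPM in all members, but measured 954 and 545 CPM without the 5 somatic cells, where its log2 fold change turned to -0.24. Neat1 and Kcnq1ot1 did not pass the test, and leaving out these cells hardly moved them, Neat1 from 23.0 and 12.7 to 23.0 and 11.8 CPM and Kcnq1ot1 from 23.4 and 22.4 to 23.8 and 22 CPM. Of the stress genes, Ddit3, a factor of the integrated stress response and the most abundant of that list, fell from 271 and 263 CPM to 231 and 206 CPM, a log2 fold change of -0.37 that was -0.33 and did not pass without the somatic cells, and Junb rose from 1.21 and 2.0 CPM to 5.37 and 8.29 CPM. Members held 0.0833 and 0.140 Junb UMIs per cell with the somatic cells and 0.0732 and 0.0917 without them. Spermatogonial genes summed to 15 and 10.2 CPM, with 2 and 3 of 9 genes at 0, and to 8.96 and 8.33 CPM without the somatic cells, with 3 at 0 in each mouse, where a count of 0 allows up to 1.15 and 1.46 CPM. Blood, immune and vessel genes summed to 8.82 and 14.1 CPM, with 4 of 10 genes at 0 in each mouse. In RNA-rich cells they summed to 4.82 CPM in mouse 1 and 352 CPM in mouse 2, where Hbb-bs, a haemoglobin gene, stood at 163 CPM.

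Repeat sequences took 1.52% and 1.39% of the UMIs of RNA-poor cells, with 1.15% and 1.33% in RNA-rich and 1.48% and 1.60% in Ssxb-led cells. The row for A-rich simple repeats led with 5336 and 6112 CPM. BC1, a small neuronal and germ line RNA, measured 927 and 691 CPM, between 1310 and 1170 CPM in RNA-rich and 309 and 227 CPM in Ssxb-led cells. The B2 rows Mm2 and Mm1a, short interspersed elements, measured 508 and 346 CPM and 339 and 218 CPM, and the L1 row MdTf_III, a long interspersed element, 246 and 219 CPM. Of 244 repeat rows tested, 13 rose and 10 fell against RNA-rich cells, smaller shares than the 14.9% and 8.30% of all features.

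The members of the 2 mice differed by more than 2-fold in few genes. Of 3922 genes with at least 100 UMIs in a mouse, 29 were higher in mouse 1 and 25 in mouse 2, and without the 5 somatic cells 13 and 19 of 3853. The genes that led in mouse 1, Amhr2, Defb36, Cst12, Cst9 and Clu, differed less without those cells: Clu measured 151 CPM in mouse 1 and 15.1 CPM in mouse 2 with them and 10.5 and 5.39 CPM without, and Amhr2 41.4 and 0.975 CPM with them and 3.9 and 0.98 CPM without. Lcn2 in mouse 2 behaved likewise, at 139 CPM with them and 5.39 CPM without. The other genes that led in mouse 2 kept their ratio. Ybx1, a cold-shock RNA-binding protein, measured 580 CPM in mouse 1 and 2154 CPM in mouse 2, and it differed the same way in RNA-rich cells (745 and 2655 CPM) and Ssxb-led cells (532 and 2055 CPM). Rnf187 with 60.2 and 210 CPM, Otud3 with 11.5 and 61.4 CPM and Nkx2-4 with 7.67 and 63.4 CPM showed the same direction in all 3 classes. With 1 animal on each side these differences have no replicate check.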

How the data were processed

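Testes of 2 mice were dissociated and run as 1 droplet library each. Per the labels and the methods, the authors demultiplexed and counted reads with bcl2fastq 2.17.1.14 and Cell Ranger 2.0.0 against a repeat-masked GRCm38 with Ensembl release 89 and added repeat sequences, and downsampled reads to equal depth per cell. The deposited matrix holds whole UMI counts, 50686 genes and 1182 repeat rows, not normalized. The deposited barcodes (other text, not a measurement) end in a number that was taken as the mouse number. No cells or rows were removed. Doublets were kept.

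The members and gene lists were chosen with earlier results of these data known. CPM are UMIs summed per class and mouse, divided by the sum. The 24 genes of the 6 sets entered the fit and the counts over all features, and were left out of the X-linked share, the gene lists and the named genes. Gene positions came from GENCODE release 21 for mouse on GRCm38, which matched 50462 genes. For thinned values, 5000 UMIs were kept at random in each cell (seed 42).

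UMIs were summed over 4 groups (early prophase-led, RNA-poor, RNA-rich, Ssxb-led) and 2 mice, giving 8 sums of 1235890 to 8432161 UMIs, and fitted with edgeR 4.0.16 in R 4.3.3 (quasi-likelihood, TMM, filterByExpr, no block), with Benjamini-Hochberg adjustment and 0.05 as threshold. All groups share 1 estimate of the spread. P-values measure the spread between the sums of 2 animals within a group, pooled over the 4 groups, and take the 8 sums as independent. On simulated data for RNA-poor against RNA-rich cells, edgeR recovered 190 of 200 genes changed 4-fold among 11902, with 9 false calls. The 8 simulated sums shared 1 mean profile apart from these 200 well-counted genes and had no animal effect. The 9 false calls thus do not give the error of the reported tests. Equal mouse numbers are the same animal, and deviations from the group means correlated at 0.046 to 0.207 between groups of a mouse, so a block was fitted as an alternative. Other alternatives were DESeq2 1.42.0, upper quartile scaling, no filter, thinning, scrublet doublets left out (scanpy 1.11.5, 25 of 2552 cells), limits of 20000 and 40000 UMIs, a lead of at least 0.2, each mouse alone and, added after the data were seen, the 5 cells with at least 100 Sertoli and Leydig UMIs left out. Tables used Python 3.11.15, numpy 2.4.6, scipy 1.17.1 and pandas 2.3.3, figures matplotlib 3.10.9.

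Named genes are the 10 with the largest log2 fold change in each direction past the threshold, with at least 100 UMIs in both mice where higher and the same direction in both. For genes highest in RNA-poor cells they are the 10 with the largest smaller ratio over the next class. For the mice they are the 5 with the largest ratio each way. Listed genes and the 5 most abundant repeat rows were added.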

Additional observations from a re-analysis of the deposited data

How the results depend on the processing

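Mice are 2, so every value rests on 2 animals, and RNA-poor cells are shallower than the cells they are compared with. The share of cells, genes per cell and mitochondrial share moved by less than the spread between the mice under the other UMI limits, a lead of at least 0.2, doublets or somatic cells left out and thinned scores. As a median over cells, the mitochondrial share was 0.215% and 0.180% in the mice, against 0.525% and 0.272% of summed UMIs. Each mouse alone gave 9.20% to 13.6% for the share of cells, 0.240% to 0.283% X-linked UMIs, 2266 to 2290 genes per cell, 0.272% to 0.525% mitochondrial UMIs and 2596 to 2705 CPM of the late spermatid list. The X-linked share moved from 0.262% to 0.222% with 40000 UMIs as limit, 0.342% with thinned scores and 0.210% as a median over cells. The late spermatid list moved from 2650 CPM to 2788 with 20000 and 2372 with 40000 UMIs as limit, 2960 with thinned scores and 2490 as a median over cells.

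Against RNA-rich cells, 1946 features (genes and repeat rows) rose and 1082 fell. Thinned cells gave 420 and 250 of 7787 features, DESeq2 537 that fell and 40000 UMIs as limit 623 that fell. The mouse as a replicate block gave 2353 and 1595 against RNA-rich and 3202 and 3626 against Ssxb-led cells. Against Ssxb-led cells, 2847 were higher and 3390 lower, with 4437 higher under upper quartile scaling, which moved the median log2 fold change of all features from 0.04 to 0.31, and 1639 lower in thinned cells. No call against RNA-rich cells took the opposite direction under the other scalings. Of X-linked genes, 1 fell against RNA-rich cells with the replicate block and 1 with no filter on low counts, where none fell otherwise.

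Leaving out the 5 somatic cells reversed Cldn11 (-0.35), Cyp11a1 (-0.040) and Malat1 (-0.24) against RNA-rich cells and Clu (-0.16), Ctsl (-0.0847) and Aard (-0.99) against Ssxb-led cells, all on the log2 scale. Malat1 against Ssxb-led cells turned to 0.30 in thinned cells and 0.086 with 20000 UMIs as limit. In single mice, Hbb-bs ranged from -4.12 to 0.78 against RNA-rich cells, and Amhr2 from -0.81 to 4.15 and Trf from -1.13 to 5.15 against Ssxb-led cells. The cause was not tested, except that the 5 cells carry Sertoli and Leydig genes.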
